A study of Rattus norvegicus with 29 samples.

Results

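This report describes plasma microRNAs (miRNAs) of sham-operated rats from Monash University in Australia (3 rats) and the University of California, Los Angeles (UCLA, 3 rats). These 6 rats were chosen by the site and group in their labels, out of 29 rats sequenced. All were adult male Sprague-Dawley rats, and sham rats were operated on but received no brain injury. Tail vein blood was drawn into K2EDTA tubes, as planned for 48 h later. The study has no record of when exactly UCLA rats were sampled. Per the study's methods, Monash rats were bred in-house, received buprenorphine for pain and were offered milk powder with mashed pellets, whereas UCLA rats came from a commercial breeder, received flunixin meglumine and were fed chow with trimethoprim and sulfamethoxazole. Anesthesia equipment differed as well. The other 23 rats were 4 sham rats of the University of Eastern Finland (UEF) and rats with lateral fluid-percussion traumatic brain injury (TBI), labelled TBIN where no epilepsy followed and TBIE where it did. They comprised 8 UEF rats (4 TBIN, 4 TBIE), 5 Monash rats (3 TBIN, 2 TBIE) and 6 UCLA rats (3 TBIN, 3 TBIE). The question here was how far plasma of uninjured rats differed between 2 sites that followed a harmonized protocol.

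miRNAs are short RNAs that guide Argonaute proteins to messenger RNAs, mainly through the seed, bases 2 to 8 from the 5′ end. A hairpin precursor can give 2 mature miRNAs, 1 from each arm, named 5p and 3p. In plasma, miRNAs travel in vesicles and protein complexes and come from blood cells, platelets, liver, muscle, endothelium and other tissues, so a plasma level is a mixture over many sources. Less of a cell type's RNA in plasma and fewer cells releasing it cannot be told apart in such samples.

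The 6 libraries held 1162307 to 2906538 miRNA counts, and all 754 miRNAs of the table were tested. Total miRNA counts were 1475141, 2906538 and 1162307 in the Monash sham rats and 2035581, 1470861 and 2377718 in the UCLA sham rats, which overlapped (two-sided exact permutation test of the means, p = 0.9). miRNAs with at least 10 counts numbered 707, 685 and 662 at Monash and 721, 721 and 731 at UCLA, so every Monash rat lay below every UCLA rat (exact permutation p = 0.1, the smallest that 3 against 3 can give). The log2 ratio of miR-451-5p, a red cell miRNA, to miR-23a-3p, which is used as a marker of hemolysis, was −2.87, −1.33 and −3.37 at Monash and −2.55, −2.90 and −3.32 at UCLA (exact permutation p = 0.8). Monash rat 2 had the highest ratio of the 6. In every sham rat miRNAs of blood cells were present, with 112171 to 297199 CPM (counts brought to a common library size, with edgeR's TMM factors) of miR-16-5p and 864 to 4532 CPM of miR-451-5p. Across miRNAs, which are not independent replicates, Spearman's rho between 2 rats was 0.932 to 0.941 within Monash sham, 0.913 to 0.931 within UCLA sham and 0.860 to 0.890 between the sites.

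One feature of the table bears on the values that follow. For many of the miRNAs that differed, the Monash sham rats lay close to 2 other labelled groups, Monash TBIN and UCLA TBIE, and these 9 libraries stood apart from the other 20. miR-673-3p was 6.50 to 9.39 CPM in Monash sham, 7.70 to 9.52 in Monash TBIN and 4.70 to 9.00 in UCLA TBIE rats. It was 35.8 to 74.3 CPM in UCLA sham, 63.5 to 87.8 in UCLA TBIN, 41.0 to 55.3 in Monash TBIE and 35.6 to 67.4 over the 12 UEF rats. The 9 libraries fill columns 15 to 23 of the deposited table with no other library among them. Neither the labels nor the methods name a batch, date or run for any library. Every Monash sham rat was among the 9 and no UCLA sham rat was, so in the sham rats the site and whatever these 9 libraries share cannot be told apart. TBIN rats were arranged in the same way, and TBIE rats in the opposite way, which is why their values stand beside the sham values below.

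**Figure D1:**
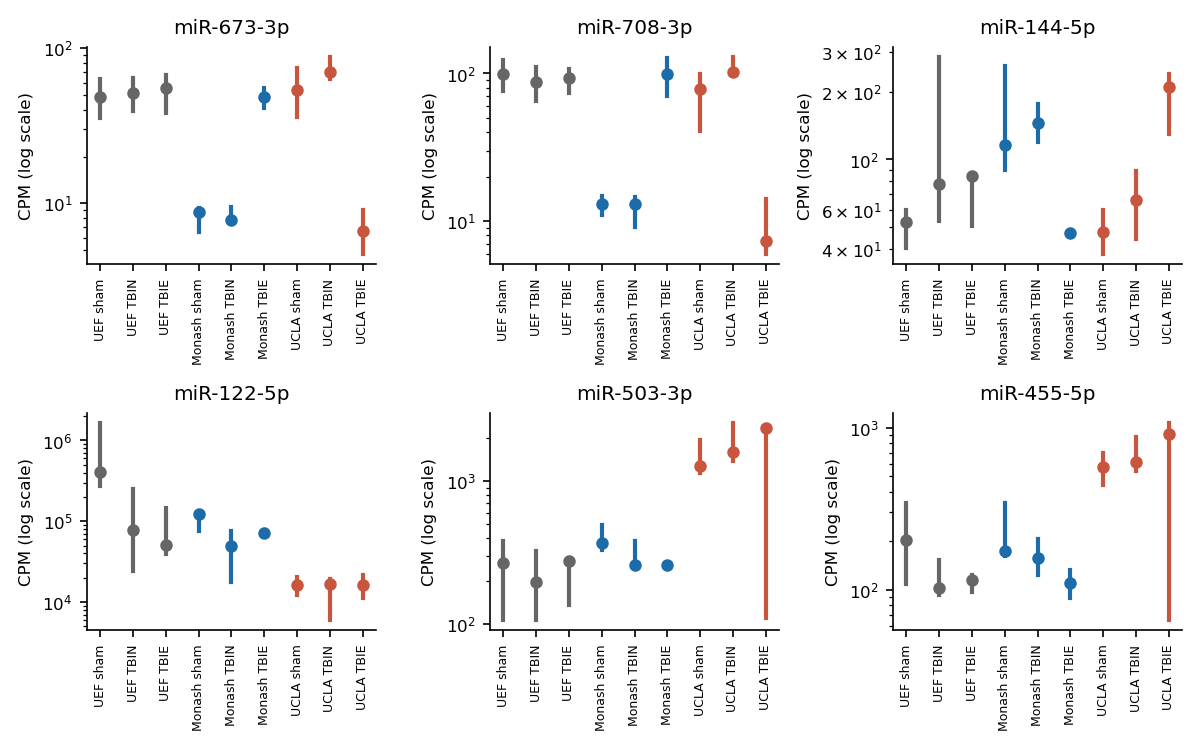
Levels of 6 miRNAs in the 9 labelled groups, in CPM on a log axis; points are group medians and bars run from the lowest to the highest rat (2 to 4 rats a group). Grey is UEF, blue Monash and red UCLA. miR-673-3p and miR-708-3p were lowest, and the median of miR-144-5p highest, in Monash sham, Monash TBIN and UCLA TBIE rats, although 1 UEF TBIN rat reached 285 CPM of miR-144-5p, while miR-122-5p had higher medians, and miR-503-3p and miR-455-5p lower medians, at Monash than at UCLA in sham, TBIN and TBIE rats alike (1 UCLA TBIE rat was at 110 CPM of miR-503-3p and 64.8 CPM of miR-455-5p). miR-122-5p reads up to 1652440 CPM in UEF sham rats, since the scale is the library total times its TMM factor.

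The miRNAs on which the comparison turned are shown first, as RefSeq gives them on the GRCr8 assembly. They were matched by name, since the counts were made on Rnor_6.0, and 674 of the 754 names had an entry. Capitals mark the seed. The first set was lower in Monash sham plasma, and its members are followed by the other arm of the same hairpin where that arm is discussed.
miR-673-3p (chr6:134306550-134306571, plus strand): uCCGGGACugaguucugugcac
miR-673-5p (chr6:134306510-134306531, plus strand): cUCACAGCuccgguccuuggag
miR-337-3p (chr6:134321201-134321223, plus strand): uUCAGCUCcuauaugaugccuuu
miR-708-3p (chr1:160011214-160011235, plus strand): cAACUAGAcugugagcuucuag
miR-708-5p (chr1:160011168-160011190, plus strand): aAGGAGCUuacaaucuagcuggg
miR-667-3p (chr6:134555392-134555413, plus strand): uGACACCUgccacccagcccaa
miR-370-5p (chr6:134354503-134354526, plus strand): cAGGUCACgucucugcaguuacac
miR-1193-3p (chr6:134550509-134550530, plus strand): uAGGUCACccguuuuacuaucc

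The second set was higher in Monash sham plasma.
miR-122-5p (chr18:61028831-61028852, plus strand): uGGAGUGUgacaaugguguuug
miR-3591 (chr18:61028831-61028850, minus strand): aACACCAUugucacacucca
miR-433-5p (chr6:134327369-134327390, plus strand): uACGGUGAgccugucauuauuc
miR-144-5p (chr10:63459409-63459431, plus strand): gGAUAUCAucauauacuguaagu
miR-21-5p (chr10:71902653-71902674, minus strand): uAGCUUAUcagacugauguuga

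By RefSeq position, miR-708 lies within the protein-coding gene Tenm4 and miR-433 within the coordinates of Rtl1. miR-667, miR-370 and miR-1193 lie within the long noncoding RNA LOC102555254. The strands of miRNA and surrounding gene were not compared, so position does not show that they share a transcript. miR-122 and miR-3591 are read from opposite strands of the same locus. Among the called miRNAs with a sequence (45 of 50), 1 seed occurred more than once, AGGUCAC, shared by miR-370-5p and miR-1193-3p. No other miRNA of the table with a sequence has that seed, and both were higher at UCLA.

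Of the 754 miRNAs, 50 (6.63%) differed between Monash sham and UCLA sham plasma at an adjusted p under 0.05 (edgeR's quasi-likelihood F test over all 29 rats, Benjamini-Hochberg adjustment). 29 (3.85%) were higher at UCLA and 21 (2.79%) were higher at Monash. The smallest difference among the 50 was 1.04 on the log2 scale (miR-142-5p), beside a median absolute difference of 0.56 over all miRNAs, of which 173 (22.9%) exceeded 1. The signed median over all was −0.02. For 573 miRNAs (76.0%) the unadjusted p was 0.05 or more. The values of the 3 rats a site did not overlap for 234 of 754 miRNAs (31.0%) and for 48 of the 50. The exceptions were miR-347 and miR-138-1-3p. In each of 6 fits that left out 1 sham rat, 12 of the 50 passed. They comprised 9 higher at UCLA (miR-673-3p, miR-337-3p, miR-708-3p, miR-667-3p, miR-130a-5p, miR-10b-3p, miR-370-5p, miR-1193-3p and miR-6326) and 3 higher at Monash (miR-301a-5p, miR-1-5p and miR-6319). The number of calls fell from 50 to 25 without Monash rat 1, 17 without Monash rat 2, 28 without Monash rat 3, 30 without UCLA rat 1 and 28 without UCLA rat 3. Scaling mattered to the balance of the calls. With upper-quartile factors 17 of 49 calls were higher at Monash, with library totals alone 4 of 17, and with miR-28-3p as the reference 4 of 13, and these scalings moved the median of all miRNAs to −0.12, −0.37 and −0.27.

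**Figure D2:**
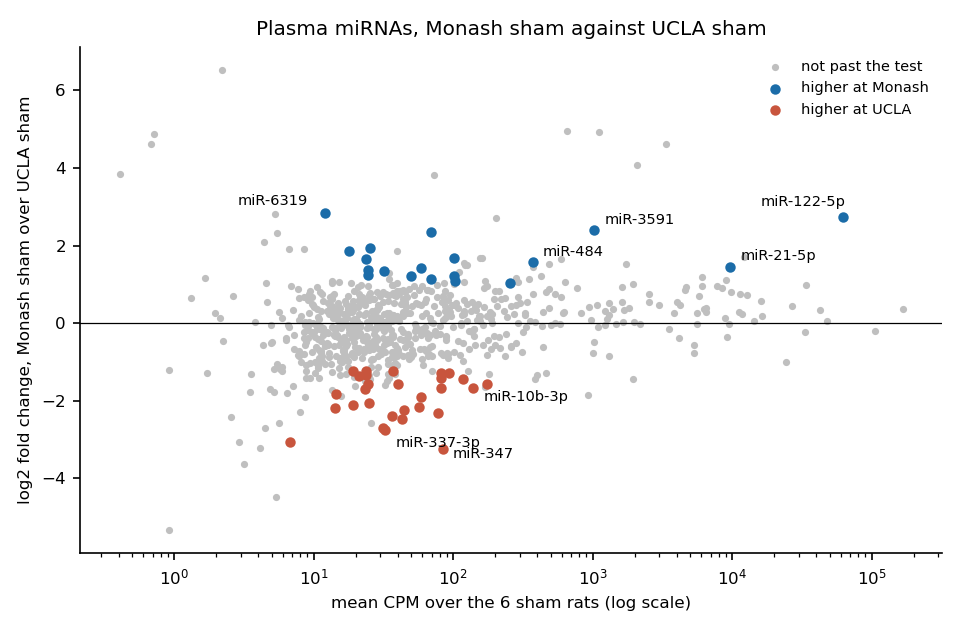
Log2 fold change of Monash sham over UCLA sham against the mean level over the 6 sham rats (CPM, log axis), 1 point a miRNA. Red points are miRNAs that passed the test and were higher at UCLA, most of them under 100 CPM, and blue points those higher at Monash, which reach from about the same levels up to miR-122-5p; miR-301a-5p and miR-1-5p, at 0 counts in every UCLA sham rat, and miRNAs at 0 in all 6 rats are left out.

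The miRNAs higher at UCLA were of low abundance: 26 of the 29 had a mean under 100 CPM, as had 73.2% of all miRNAs, and the highest mean was 174 CPM. The leading ones came from imprinted hairpins on chromosome 6 and from single hairpins elsewhere. miR-673-3p, which lies near Meg3 in the imprinted Dlk1-Dio3 region, was 9.39, 8.77 and 6.50 CPM in the Monash rats and 74.3, 53.7 and 35.8 CPM in the UCLA rats. All 3 UCLA rats lay above all Monash rats, and the difference was −2.71 ± 0.35 (log2, SE; adjusted p = 1.32e-05), or 6.53-fold. miR-337-3p, from the Rtl1 side of the same region, was 7.18, 7.39 and 10.6 CPM at Monash and 65.3, 67.5 and 36.1 CPM at UCLA. It differed by −2.76 ± 0.37 (adjusted p = 1.32e-05). These 2 were the lowest p-values of the table, and UCLA rat 3 was the lowest UCLA rat in both.

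miR-708-3p, from the hairpin within Tenm4, was 11.0, 14.8 and 13.0 CPM at Monash and 78.2, 98.9 and 40.9 CPM at UCLA (difference −2.48 ± 0.37, adjusted p = 9.25e-05). miR-667-3p was 30.9, 20.3 and 26.0 CPM at Monash and 90.3, 87.0 and 210 CPM at UCLA (−2.33 ± 0.36, adjusted p = 0.000102). In both the highest Monash rat lay below the lowest UCLA rat. miR-10b-3p, of a hairpin in the Hoxd cluster, had the smallest SE of the 12 with the lowest p, with 84.5, 61.4 and 52.8 CPM at Monash against 189, 217.4 and 231 CPM at UCLA (−1.68 ± 0.29, adjusted p = 0.000395). miR-130a-5p differed by −2.40 ± 0.41 (adjusted p = 0.000395). miR-370-5p and miR-1193-3p, the pair that shares a seed, differed by −2.07 ± 0.38 and −2.24 ± 0.42 (adjusted p = 0.000855 and 0.00119). miR-370-5p stood at 13.3, 6.46 and 8.94 CPM at Monash and 44.1, 47.6 and 29.3 CPM at UCLA. Counts behind these values were small, 11 to 24 per Monash rat for miR-370-5p. miR-137-3p, a miRNA abundant in neurons, was 52.5, 28.2 and 37.4 CPM at Monash and 114, 166 and 96.7 CPM at UCLA (−1.67 ± 0.35, adjusted p = 0.00512).

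The last 3 of the 12 with the lowest p were miR-6326 (−2.19 ± 0.47), miR-347 and miR-6318 (−1.90 ± 0.44). miR-347 rested on a single library. It was 22.6, 14.3 and 10.6 CPM at Monash and 15.6, 21.9 and 419 CPM at UCLA, with 1300 counts in UCLA rat 3. Without that rat the difference was −0.23 and did not pass the test. miR-137-3p and miR-6318 did not pass without Monash rat 2 (−1.48 and −1.91), and miR-6318 not without UCLA rat 2 either (−1.55). UCLA rat 3 was also the highest for miR-770-3p, an imprinted miRNA within Meg3, at 188 CPM against 35.4 and 56.1 CPM in the other UCLA rats, and for miR-667-3p.

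Of the 21 miRNAs higher at Monash 13 (61.9%) had a mean under 100 CPM, and 2 abundant plasma miRNAs, miR-122-5p and miR-21-5p, were among the rest. miR-122-5p, which makes up most of the miRNA of hepatocytes, was 76038, 128420 and 122289 CPM in the Monash rats and 16027, 12320 and 20510 CPM in the UCLA rats. The lowest Monash rat lay far above the highest UCLA rat, and the difference was 2.74 ± 0.76 (log2, SE; adjusted p = 0.0273), or 6.69-fold. The 2 other products of that locus moved with it. miR-3591 was 1136, 2146 and 1867 CPM against 321.6, 250 and 400 CPM (2.41 ± 0.73, adjusted p = 0.0438), and miR-122-3p was 69.6, 177 and 100.8 CPM against 16.9, 23.8 and 28.1 CPM (2.34 ± 0.71, adjusted p = 0.0439). Whether the counting kept the 2 strands apart is not stated, so miR-3591 is not an independent measurement. The threshold was reached narrowly: miR-122-5p passed in 1 of the 6 fits that left out a rat (without Monash rat 1) and miR-3591 and miR-122-3p in none, with differences of 2.58 to 2.94, 2.19 to 2.63 and 1.87 to 2.60. UEF sham rats had more miR-122-5p than either site, with a median of 402205 CPM.

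miR-21-5p, which is widely expressed and rises in inflamed and injured tissue, was 13108, 17917 and 11218 CPM at Monash and 4638, 3770 and 6973 CPM at UCLA (1.46 ± 0.44, adjusted p = 0.0438). It passed in none of the fits that left out a rat, where it differed by 1.25 to 1.74. Both arms of the erythroid hairpin miR-144 were higher at Monash. miR-144-3p was 61.9, 127.9 and 65.0 CPM against 35.9, 33.3 and 26.4 CPM (1.42 ± 0.38, adjusted p = 0.0199) and miR-144-5p was 115, 260 and 89.4 CPM against 47.5, 38.1 and 59.7 CPM (1.68 ± 0.47, adjusted p = 0.0287). Monash rat 2, the rat with the highest miR-451-5p to miR-23a-3p ratio, was highest in both. Without it neither passed (differences of 0.98 and 1.09), nor did either pass without any one of the UCLA rats (1.30 to 1.51 and 1.53 to 1.86). The other main miRNAs of red cells did not pass the test. miR-451-5p differed by 0.93 ± 0.67 and miR-486 by −0.20 ± 0.41, and miR-16-5p by 0.35 ± 0.44. The summed level of the red cell list was 66781 to 162410 CPM at Monash and 62893 to 148902 CPM at UCLA. The part of red cell release in these differences was not tested.

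miR-484, a widely expressed miRNA, was 615.3, 470 and 582 CPM at Monash and 219.1, 210.7 and 128.7 CPM at UCLA (1.58 ± 0.41, adjusted p = 0.0189). miR-433-5p, whose hairpin lies within the coordinates of Rtl1, was 44.2, 28.2 and 48.8 CPM against 9.51, 12.4 and 9.67 CPM (1.93 ± 0.49, adjusted p = 0.0184). miR-134-3p, from the imprinted cluster, differed by 1.34 ± 0.35 and miR-216b-5p, a pancreas miRNA, by 1.85 ± 0.49 (adjusted p = 0.019 for both). miR-1949 and miR-363-3p differed by 1.66 ± 0.44 and 1.08 ± 0.30. In each of these 6 the 3 Monash rats lay above the 3 UCLA rats. The call was lost without Monash rat 1 for all 6, and without UCLA rat 3 for all 6. Their differences were then 1.498 and 1.37 for miR-484, 1.86 and 1.88 for miR-433-5p, 1.26 and 1.26 for miR-134-3p, 1.59 and 1.65 for miR-216b-5p, 1.16 and 1.76 for miR-1949 and 1.12 and 1.05 for miR-363-3p.

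3 miRNAs were at or near 0 in the UCLA sham rats. miR-301a-5p had 13, 15 and 6 counts in the Monash rats and none in any UCLA sham rat. With 3 counts over the UCLA group as the floor, it was at least 15.9-fold higher at Monash (adjusted p = 0.0105). miR-1-5p, from a muscle hairpin, had 24, 22 and 31 counts against none and was at least 40.6-fold higher (adjusted p = 0.0114). miR-6319 was 25.4, 13.9 and 25.2 CPM at Monash and 0, 0 and 8.06 CPM at UCLA (adjusted p = 0.0119). miR-301a-5p was also at 0 in 1 Monash TBIE rat and in the lowest UEF sham rat, and it was 6.70 to 10.2 CPM in the UCLA TBIN rats, so counts of 0 occurred at all 3 sites. In injured UCLA rats miR-1-5p was 2.87 to 4.48 CPM (TBIN) and 8.46 to 10.3 CPM (TBIE). miR-6319 was 11.1 to 20.8 CPM in UCLA TBIN and 12.6 to 18.4 CPM in UCLA TBIE rats. At this depth a count of 0 does not show that a miRNA was absent.

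**Figure D3:**
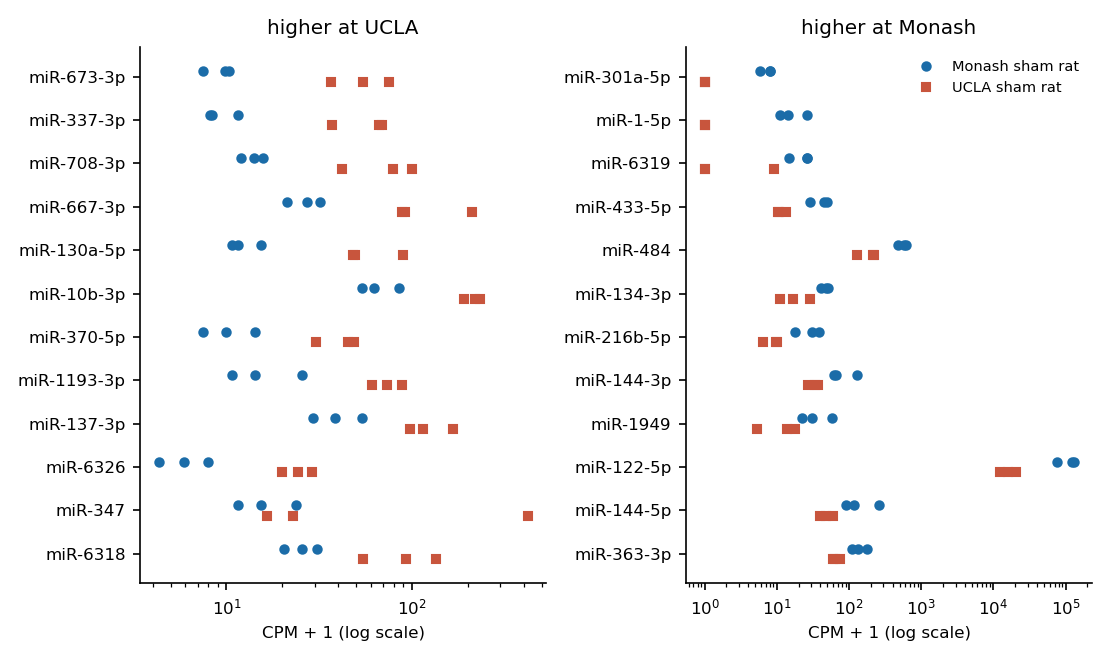
Level of each of the 12 miRNAs with the lowest p in either direction, in every sham rat (CPM + 1, log axis), blue circles for Monash and red squares for UCLA. The 3 rats a site form separate clusters for all but miR-347, for which UCLA rat 3 alone, at 419 CPM, stands to the right.

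The other arm of the same hairpin was measured for 35 of the 50, and for 5 of the leading miRNAs higher at UCLA its estimate lay near 0. miR-673-5p was 29.3, 36.9 and 13.0 CPM at Monash and 22.0, 23.3 and 43.5 CPM at UCLA, a difference of −0.15 ± 0.39 beside −2.71 for the 3p arm. miR-708-5p differed by 0.01 ± 0.42, miR-667-5p by −0.14 ± 0.40, miR-1193-5p by −0.01 ± 0.58 and miR-337-5p by 0.38 ± 0.44. These 5 estimates were within 1 SE of 0 and their sign changed under other settings. miR-130a-3p, the main arm of its hairpin, had the opposite sign at 0.83 ± 0.43. For miR-10b-5p, miR-370-3p and miR-137-5p the differences were −0.74 ± 0.48, −0.54 ± 0.38 and −0.52 ± 0.39, in the direction of the partner but not past the test. Among the 19 miRNAs higher at UCLA with a measured partner, the partner of 1 passed the test. That was miR-363, whose arms passed in opposite directions, 1.08 ± 0.30 for 3p and −1.41 ± 0.36 for 5p. Among the 16 higher at Monash with a measured partner, 5 partners passed. They comprised both arms of miR-122, both arms of miR-144 and the opposite-moving arm of miR-363. Over all 275 hairpins with both arms measured, the arms had the same sign in 163 (59.3%), against 13 of 19 (68.4%) and 12 of 16 (75.0%) for the called miRNAs.

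**Figure D4:**
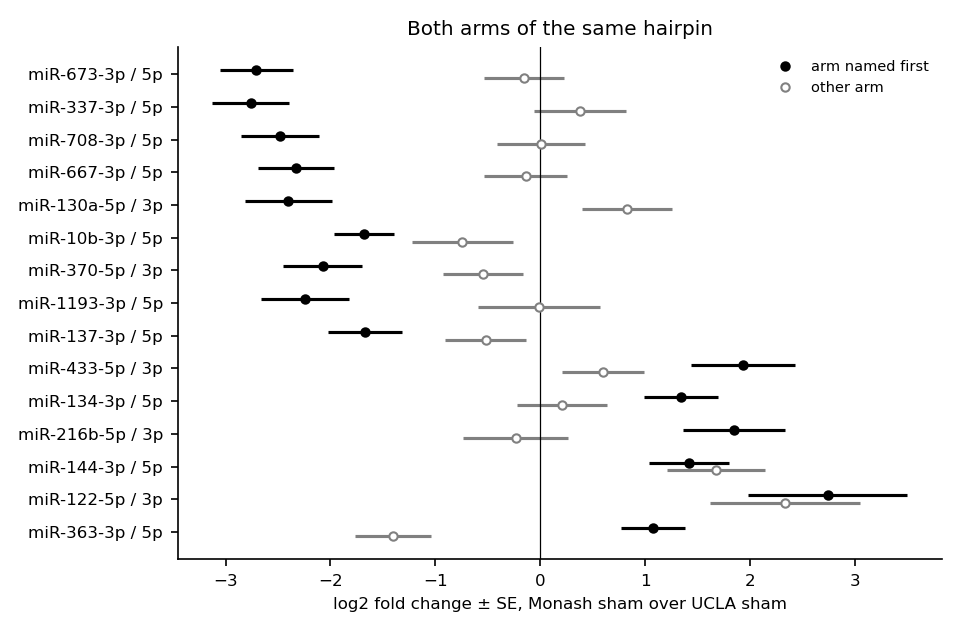
Log2 fold change of Monash sham over UCLA sham, with its SE, for both arms of the hairpins of the leading miRNAs; black points are the arm named first and open grey points the other arm. For miR-673, miR-337, miR-708, miR-667 and miR-1193 the grey points lie at 0 within 1 SE while the black points lie beyond −2, miR-144 and miR-122 have both arms on the Monash side, and the arms of miR-363 lie on opposite sides.

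GC content had a median of 42.9% for the miRNAs higher at Monash, 47.6% for those higher at UCLA and 47.8% for all tested, with a sequence for 95.2%, 86.2% and 89.4% of them. Neighbouring hairpins, within 10000 bases of each other on the same strand, were called in both directions. Of 15 measured miRNAs in the stretch with miR-673 and miR-337, 3 were called higher at UCLA and 1, miR-433-5p, higher at Monash, and the median difference of the 15 was −0.06. In the larger stretch with miR-667 and miR-1193, 4 of 59 were called higher at UCLA and 1 higher at Monash, around a median of −0.01.

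Groups of miRNAs with a known source were counted next. Over all 754 miRNAs the median was −0.02 and 6.63% passed, 3.85% higher at UCLA and 2.79% higher at Monash, and the groups' medians and counts stand beside these. All 5 liver miRNAs were higher at Monash, 3 of them past the test, with a median of 2.34. Those 3 (miR-122-5p, miR-122-3p and miR-3591) come from 1 locus and are not independent. The other 2, miR-802-5p (0.63) and miR-802-3p (0.39), did not pass. The summed level of the 5 was 77324 to 130836 CPM at Monash and 12653 to 20997 CPM at UCLA, nearly all of it miR-122-5p. The 5 miRNAs shared by liver and gut (miR-192, miR-194 and miR-215) had a median of 0.87 and none passed. Of 5 red cell miRNAs 2 passed, both from miR-144, beside 6.63% of all miRNAs. Of 6 white cell and platelet miRNAs 1 passed, miR-142-5p, a leukocyte miRNA (383, 438 and 207 CPM against 189, 136.5 and 174 CPM), and the median was 0.96. Its call was lost without any rat other than Monash rat 3 (0.84 to 1.14). miR-223-3p of neutrophils and platelets was 45807, 58176 and 29682 CPM at Monash and 23585, 22082 and 21633 CPM at UCLA and missed the threshold (0.99 ± 0.43, adjusted p = 0.157). Of 8 inflammation miRNAs, miR-21-5p was higher at Monash and miR-146b-3p higher at UCLA (−2.11, adjusted p = 0.0184).

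Of 15 muscle miRNAs 1 passed, miR-1-5p, a share near the 6.63% of all miRNAs. The estimate was higher at Monash for 8 and higher at UCLA for 7, with a median of 0.18. Among those higher at UCLA were miR-499-3p (−4.48), miR-206-5p (−1.61) and miR-208b-3p (−0.83), none past the test. For 6 of the 15 the unadjusted p was 0.05 or more, as it was for 76.0% of all miRNAs. The summed level of the muscle list was 1754 to 34218 CPM at Monash and 567 to 931 CPM at UCLA, so the groups did not overlap. Monash rat 3 held the top. miR-206-3p was 2695, 643 and 16027 CPM at Monash and 201, 266 and 321 CPM at UCLA (4.62 ± 1.56, adjusted p = 0.0636), and miR-1-3p was 633, 295 and 5459 CPM against 40.6, 47.1 and 121.6 CPM (4.93 ± 1.66, adjusted p = 0.0636). The spread among Monash rats exceeded that among UCLA rats in both. Without Monash rat 3 the differences were 2.67 and 2.73. Both miRNAs passed with DESeq2 and with edgeR fitted to the 6 or the 10 sham rats alone.

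Of 22 brain miRNAs, 15 had a lower estimate and 7 a higher estimate at Monash. 3 were called higher at UCLA (miR-137-3p, miR-138-1-3p and miR-128-2-5p) and 1 higher at Monash (miR-124-5p), beside 3.85% and 2.79% of all miRNAs, and the median was −0.26. Of 6 oligodendrocyte miRNAs 1 passed, miR-219a-5p, which was higher at UCLA (−1.23 ± 0.32, adjusted p = 0.019). The estimates of the 6 were higher at Monash for 3 and higher at UCLA for 3, with a median of −0.12. Of the 64 miRNAs of the imprinted miR-379 to miR-410 cluster 3 were higher at UCLA and 1 higher at Monash (median 0.01), a share near that over all miRNAs (6.63% in both directions). Of 20 on the Rtl1 side 3 and 1 passed (median −0.16). Neither of these lists holds miR-673 or miR-1193, so the calls of miR-673-3p and miR-1193-3p are not in their counts. None of the 7 miRNAs that the study carried forward as candidates passed. miR-434-3p was 162, 81.3 and 249 CPM at Monash and 103, 100.8 and 166 CPM at UCLA. The other 6 ran from −0.52 (miR-183-5p) to 0.49 (miR-323-3p), with miR-212-3p, miR-124-3p, miR-9a-3p and miR-132-3p between them. miR-28-3p, the reference miRNA of the study, differed by 0.28 ± 0.40. Single members were called in the let-7 family (let-7f-1-3p, −1.25), the miR-101 family (miR-101b-5p, 1.25), the Hox group (miR-10b-3p) and the pancreas group (miR-216b-5p). miR-128-2-5p and miR-124-5p passed in none of the fits that left out a rat (−1.64 to −1.46 and 1.10 to 1.60). miR-219a-5p, miR-138-1-3p, miR-146b-3p, let-7f-1-3p and miR-101b-5p each failed in 3 to 5 of them, with the sign kept. The other 14 groups had no call, and their medians ran from −1.17 (the 4 cartilage miRNAs of miR-140 and miR-455) to 0.96 (7 miRNAs of vessels).

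The same site contrast in injured rats was set beside the sham contrast. The injured rats are other animals, but the contrasts share the fit and whatever the 9 libraries that stood apart have in common. Averaged over TBIN and TBIE, 31 of 754 miRNAs (4.11%) differed between Monash and UCLA. Of the 50 called in sham rats, 30 (60.0%) had the same sign in that average, against 54.5% of all miRNAs, and 1 passed. That was miR-122-5p, at 1.96 (adjusted p = 0.0445). It was 17777 to 76739 CPM in Monash TBIN, 65410 to 78818 CPM in Monash TBIE, 5962 to 19347 CPM in UCLA TBIN and 11077 to 21612 CPM in UCLA TBIE rats. miR-3591 and miR-122-3p had 1.51 and 1.37 and missed the threshold (adjusted p = 0.0941 and 0.13). This average holds 1 group of the 9 libraries on each side, Monash TBIN and UCLA TBIE.

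The site contrast was then taken apart by outcome. In TBIN rats 103 of 754 miRNAs (13.7%) differed between the sites. Of the 50, 47 (94.0%) had the sign seen in sham rats, as had 73.5% of all miRNAs, and 26 passed, all in the sham direction. In TBIE rats 68 of 754 (9.02%) differed. There 6 of the 50 (12.0%) had the sham sign, against 34.5% of all miRNAs, and 19 passed, all in the opposite direction. miR-673-3p differed by −3.14 ± 0.34 in TBIN and 2.81 ± 0.37 in TBIE rats, miR-708-3p by −3.17 ± 0.37 and 3.45 ± 0.40, and miR-433-5p by 1.82 ± 0.50 and −1.89 ± 0.57. miR-21-5p differed by 1.69 ± 0.45 (adjusted p = 0.0131) and −0.97 ± 0.50 (adjusted p = 0.213). Tested directly, the site difference in sham rats differed from that in TBIE rats for 39 of the 50, beside 17.6% of all 754. It differed from that in TBIN rats for 0 of 754 (0.0%) in edgeR, where 52 of 754 and 11 of the 50 had an unadjusted p under 0.05. Against the injured average, 21 of 754 (2.79%) differed, 17 of them among the 50. The 50 were chosen on the sham values that enter these tests, so their counts are descriptions. The comparison by outcome was added after the levels by group had been seen.

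**Figure D5:**
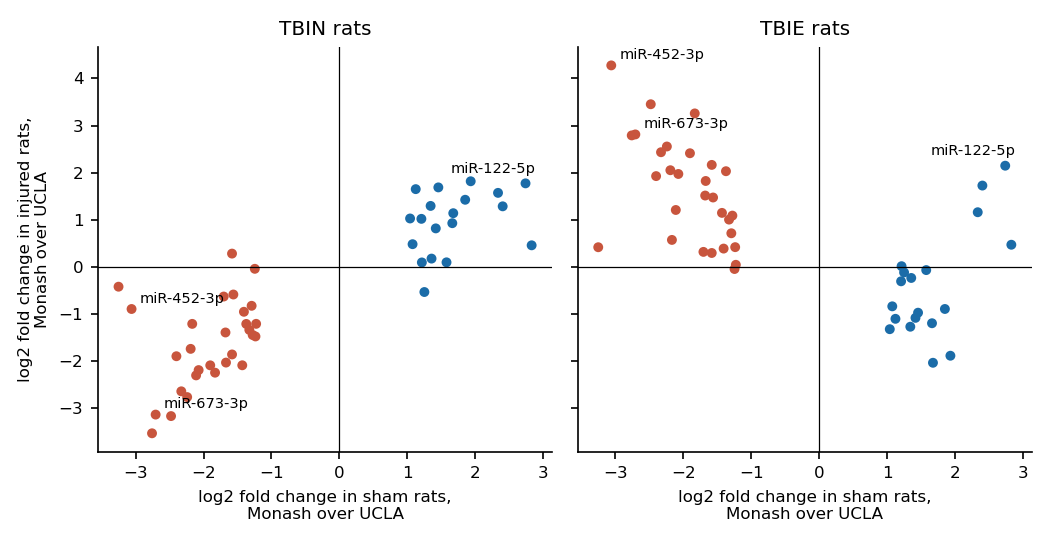
Log2 fold change of Monash over UCLA in TBIN rats (left) and TBIE rats (right) against that in sham rats, for the 48 called miRNAs with counts in the UCLA sham rats, blue where higher at Monash sham and red where higher at UCLA sham. Points run along the rising diagonal in TBIN rats and mostly along the falling diagonal in TBIE rats, with miR-122-5p at 1.77 and 2.15 on the Monash side in both.

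Of the 29 miRNAs higher at UCLA sham, the highest of the 9 libraries lay below the lowest of the other 20 for 14 (48.3%), compared with 21 of all 754 (2.79%). None of the 21 higher at Monash had all 9 above all 20, and neither had any of the 754. These counts were made after the levels had been seen and carry no test. Sham rats of UEF, which lie among the 20, had 41.9 to 83.4 CPM of miR-337-3p and 113 to 193.7 CPM of miR-10b-3p, above all Monash sham rats in both. UEF sham differed from Monash sham for 70 of 754 miRNAs (9.28%) and for 34 of the 50. It differed from UCLA sham for 55 of 754 (7.29%) and for 9 of the 50. These comparisons share the Monash and the UCLA sham rats with the main one.

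The 31 miRNAs that differed between the sites in injured rats were looked up in the sham rats. Sham rats were outside the contrast that chose them. They did enter the same fit, with its scaling and its estimate of spread, so the 2 contrasts are not independent. 23 of the 31 had the same sign in sham rats (74.2%, against 54.5% of all 754), 16 had an unadjusted p under 0.05, of which 14 had the same sign, and 1, miR-122-5p, passed the adjusted test. Of 11 miRNAs in the X chromosome cluster that holds miR-322 and miR-503, 6 passed in injured rats, as did all 4 cartilage miRNAs, beside 4.11% of all 754. These were lower at Monash, with group medians of −1.18 and −2.20. In sham rats the medians were −0.93 and −1.17, 10 of 11 and 4 of 4 were lower at Monash, and none passed in the main edgeR fit over 29 rats. With DESeq2 over the 29 rats in 9 groups, miR-503-3p, miR-503-5p and miR-351-3p passed. miR-503-5p also passed in edgeR over 29 rats with upper-quartile factors, library totals alone or the filter of 10 counts in every rat. With the 6 sham rats alone miR-503-3p, miR-503-5p, miR-351-3p, miR-455-3p and miR-455-5p passed in edgeR and in DESeq2, at about the same differences. miR-503-3p was 328, 372 and 495.1 CPM in Monash sham and 1924, 1283 and 1136 CPM in UCLA sham rats, with no overlap (−1.86 ± 0.64, adjusted p = 0.0698). It was −2.61 ± 0.66 in TBIN and −2.63 ± 0.77 in TBIE rats. miR-455-5p was 161, 343 and 172 CPM against 697, 440 and 575 CPM (−1.34 ± 0.56, adjusted p = 0.139), and −2.35 in injured rats. miR-140-3p, the main cartilage miRNA, was 10765, 28985 and 9152 CPM against 41713, 19617 and 36191 CPM, so the groups overlapped through Monash rat 2 (−0.996 ± 0.530, adjusted p = 0.257). Among UCLA TBIE rats the lowest value of miR-455-5p was 64.8 CPM and the median 916 CPM. For miR-503-3p the lowest was 110 CPM and the median 2343 CPM, so 1 such rat stood at the level of the other sites.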

How the data were processed

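Plasma small RNA libraries of 29 rats were made with a kit that adds molecular identifiers and sequenced by a service laboratory. Per the study's methods and the submitters' processing notes, the authors used cutadapt for trimming and Bowtie for alignment against Rnor_6.0, with miRNAs of miRBase version 21. The deposited table holds raw counts of 754 miRNAs per rat, not normalized. Whether reads of 1 molecule were merged is not stated. 7 names join several miRNAs. Each rat was 1 library, and groups came from the labels.

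Counts were tested with edgeR 4.0.16 in R 4.3.3 (filterByExpr, minimum count 10, which kept all 754 miRNAs; TMM factors; quasi-likelihood F test; 9 groups of site and outcome; threshold of adjusted p 0.05). The biological coefficient of variation was 0.429. Contrasts were Monash against UCLA in sham rats, in injured rats and their difference. CPM were TMM-scaled. Exact permutation tests used scipy 1.17.1. Replicate numbers did not pair rats of the 2 sites. Depth was 1162307 to 2906538 counts per sham rat, which limits miRNAs of few counts. Floors cover counting error only. SEs were worked back from the F statistic, as the absolute log2 fold change over its square root. They rest on the spread estimated over all 29 rats in 9 groups, not on the spread of the 6 sham rats alone.

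miRNAs named were the 12 with the lowest p in each direction, their other arms, called members of 27 lists, and the study's candidates, reference and plasma checks. Others (miR-503-3p, miR-455-5p, miR-503-5p, miR-351-3p, miR-455-3p, miR-140-3p, miR-206-3p, miR-1-3p, miR-1b, miR-133a-3p/133b-3p, miR-133c, miR-802-5p, miR-802-3p, miR-770-3p, miR-452-3p, miR-496-3p) were chosen after their values were seen. Members, lists and tests were chosen with earlier results of these data known. Alternatives were DESeq2 1.42.0, other samples, scalings and filters, thinning, a hemolysis covariate, replicate block and leaving out each rat.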

Additional observations from a re-analysis of the deposited data

Results flagged for a closer look

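The site difference in sham rats differed from the average site difference in injured rats for 17 of the 50 miRNAs by a test of the difference itself (edgeR's quasi-likelihood F test, Benjamini-Hochberg adjustment over 754 miRNAs). Over all 754 miRNAs, 21 (2.79%) differed in this test. The difference between the 2 contrasts was −2.54 for miR-673-3p and −2.62 for miR-708-3p (adjusted p = 0.00132 for both), −2.39 for miR-337-3p (adjusted p = 0.00223) and −2.22 for miR-667-3p (adjusted p = 0.00408) on the log2 scale. It was −1.74 for miR-10b-3p, −2.42 for miR-130a-5p and −4.75 for miR-452-3p (adjusted p = 0.00499 for the 3). It was −1.96 for miR-370-5p (adjusted p = 0.0177), −2.14 for miR-1193-3p (adjusted p = 0.0186) and −2.35 for miR-6326 (adjusted p = 0.0204). miR-6318 and miR-138-1-3p had −2.06 and −1.87 (adjusted p = 0.0353 for both), miR-347 had −3.25 (adjusted p = 0.0435) and rested on UCLA sham rat 3, miR-137-3p had −1.57 (adjusted p = 0.0439) and miR-496-3p had −1.78 (adjusted p = 0.0454). miR-144-5p had 2.13 in the other direction (adjusted p = 0.0439). miR-301a-5p, at 0 counts in the UCLA sham rats, passed as well (adjusted p = 0.0148), and its fitted value is not a bound. In 15 of the 17 the sham rats were the ones with the larger difference towards UCLA. The 50 were chosen on sham values that enter this test, so their counts are descriptions. The injured average holds 1 group of the 9 libraries on each side, whereas the sham contrast holds them on the Monash side only. A comparison with that average therefore cannot tell injury from the arrangement of these libraries. Tested against TBIN rats, arranged like the sham rats, 0 of 754 differed, and against TBIE rats 39 of the 50 did. Only the Monash and UCLA sham rats were left out 1 at a time, and no other search for single outlying rats was made.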

How the results depend on the processing

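With 3 rats a site the count of calls moved with most choices. Beside the 50 calls (21 higher at Monash, 29 higher at UCLA), DESeq2 with 9 groups gave 99 (46 and 53) and with the 6 rats alone 88 (49 higher at Monash). edgeR on the 10 sham rats gave 21 (9 and 12), library totals alone 17 (4 and 13), scaling to miR-28-3p 13 (4 and 9), and a filter of 10 counts in every rat left 13 higher at Monash. Leaving out 1 rat gave 17 to 36 calls (5 to 11 higher at Monash, 10 to 25 higher at UCLA), the fewest without Monash rat 2, and 12 of the 50 passed in each of these 6 fits. Same-numbered rats of the sites did not deviate together (correlations of −0.02, −0.16 and −0.02), so the numbers are no pairing. A replicate block gave 42 calls with 29 rats, and with 6 rats 76 (45 higher at UCLA), beside 65 (37 higher at UCLA) in the 6 rats without it. The difference from injured rats had 21 calls, 47 with DESeq2 and 9 to 22 with 1 rat left out.

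Of the 22 leading miRNAs with a fold, none changed sign in 453 recomputed values, and 81 of those lost the call. 7 of the 22 lost it under no setting. Sign changes were limited to values not past the test. With library totals alone the difference was −0.013 for miR-337-5p, −0.29 for miR-708-5p, −0.15 for miR-301a-3p, −0.039 for miR-134-5p, −0.085 for miR-16-5p, −0.27 for miR-23a-3p and −0.10 for miR-28-3p, and scaled to miR-28-3p it was −0.23 for miR-708-5p, −0.042 for miR-301a-3p and −0.17 for miR-23a-3p. miR-708-5p also gave −0.011 (upper-quartile factors), −0.032 (stricter filter), −0.028 (replicate block with 29 rats), −0.021 (3 largest miRNAs left out) and −0.039 (hemolysis covariate), miR-16-5p gave −0.019 with that covariate, and miR-1193-5p gave 0.018 with DESeq2 on 6 rats and 0.013 and 0.020 with the replicate block on 29 and 6 rats. With 1 rat left out, ranges were −0.44 to 0.24 for miR-673-5p, −0.33 to 0.44 for miR-708-5p, −0.26 to 0.0026 for miR-667-5p, −0.26 to 0.43 for miR-1193-5p, −0.0018 to 0.46 for miR-301a-3p, −0.081 to 0.85 for miR-134-5p, −0.15 to 0.61 for miR-16-5p, −0.065 to 0.28 for miR-23a-3p, −0.023 to 0.71 for miR-434-3p, −1.22 to 0.12 for miR-9a-3p, −0.15 to 0.14 for miR-212-3p, −0.27 to 1.30 for miR-451-5p and −0.75 to 0.047 for miR-486. The difference of total counts ranged from −642663 to 229453 and that of the log2 ratio of miR-451-5p to miR-23a-3p from −0.20 to 0.82. The cause of these changes was not tested.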
